A study of Mus musculus with 14 samples.

Results

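The mitotic spindle and kinetochore genes described here are 37 genes whose products build the kinetochore, run the spindle checkpoint, move chromosomes and divide the cell. They were chosen by name for their known roles, by a rule that holds no measured value, but with earlier results of these data known. All 37 were found among the 52459 genes of the deposited count tables. The data came from E14Tg2a mouse embryonic stem cells (mESCs), grown in serum with LIF on gelatin. WT cells were compared with METTL14 R255K cells, in which CRISPR-Cas9 had replaced an arginine codon of METTL14, a subunit of the m6A methyltransferase, with a lysine codon. The knock-in cells came from single colonies, and the labels do not say from how many, so the genotype and the colony cannot be told apart. MeRIP-seq, in which fragmented RNA is immunoprecipitated with an m6A antibody, had 2 IP and 2 input libraries per genotype, without other treatment. RNA lifetime was measured by polyA RNA-seq after 0, 4 and 8 h in 5 µg/ml actinomycin D, which blocks transcription, with 1 library per genotype and time.

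Kinetochores are protein assemblies on centromeres that hold spindle microtubules. The spindle checkpoint keeps anaphase waiting until every kinetochore is attached, and the anaphase-promoting complex then frees separase to cut cohesin. Aurora B and its partners correct wrong attachments, kinesin motors shape the spindle, and a central spindle with an actomyosin ring separates the daughter cells. Many of these transcripts are made in G2 and M phase and some are degraded quickly afterwards. mESCs divide rapidly, and m6A on an mRNA is known to shorten the life of many transcripts.

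The 6 RNA-seq libraries held 13812160 to 18813640 counts in genes. Levels are given as FPKM, which divides the counts of a gene by its exon length and by the summed counts of the library. All 37 members reached a mean FPKM of 1 at 0 h, as did 11869 of the 52459 genes, which serve as the background below. With 1 library per genotype and time there is no replicate check and no test of any difference between genotypes or times. Intervals on ratios are 95% intervals from counting error only. The 8 pluripotency markers were all at an FPKM of at least 1, with a summed FPKM of 2638 to 2970 in the WT libraries and 2079 to 2498 in the R255K libraries, so each R255K library was lower. Of 7 fibroblast feeder markers, 1 reached an FPKM of 1 in each WT library and 2 in each R255K library, with a summed FPKM of 1.66 to 2.21 in WT and 5.96 to 7.19 in R255K. The part of other cells in the results was not tested. Counts per gene cannot show the codon change, so the genotype labels were not checked.

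The MeRIP-seq peaks showed where m6A was called on these transcripts. In WT cells 23 of the 37 members carried a peak on an exon (62.2%), against 57.4% of the background genes. In R255K cells 17 members did (45.9%), against 43.6% of the background genes. The WT list held 43 peaks on exons of members and the R255K list held 25. The authors deposited a single peak list for each genotype, so replicates could not be compared, and the depth behind the lists is unknown.

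Below, kept WT peaks share 1 bp or more with an R255K peak and lost WT peaks share none. Of the 43 member peaks 20 were lost (46.5%, 95% Wilson interval 32.5 to 61.1, counting error only). This was close to the 47.9% lost among all exonic WT peaks, and to the 43.8% lost among those on the background genes. Of the 25 R255K peaks 3 overlapped no WT peak (12%, against 13.1% of all exonic R255K peaks), and these lay on *Spc24*, *Bub1b* and *Birc5*. Among the 23 kept member peaks, 14 had a lower fold enrichment over the local background in R255K than in WT cells (60.9%, interval 40.8 to 77.8), against 70.6% of all kept exonic peaks.

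Losses were spread unevenly over the roles. Kinetochore genes carried 10 WT peaks, of which 9 were lost. *Cenpf* (chr1:189640606-189688086, minus strand, GRCm38/mm10), which encodes a very large kinetochore and nuclear matrix protein, held 7 of these peaks and lost 6. Of its lost peaks, 3 lay in its exon 12 of 3428 bp, 2 in its exon 13 of 2832 bp and 1 in the 3′ UTR. The single WT peaks of *Cenpe*, the kinetochore motor, of *Nuf2* and of *Spc24*, both subunits of the NDC80 complex, were lost too. By contrast the chromosomal passenger complex genes *Aurkb*, *Incenp* and *Birc5* held 7 WT peaks, and none was lost. The 4 spindle motor genes held 6 WT peaks and lost 4. These are small numbers of peaks, and the role of a gene was not tested as a factor.

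Lost member peaks were weaker than kept ones. Median fold enrichment was 3.55 for lost peaks (1.89 to 7.06) and 5.12 for kept peaks (1.58 to 18.3). Over all exonic WT peaks the medians were 4.98 and 7.97. Of member peaks at a fold enrichment of 5 or more, 4 of 16 were lost, against 36.8% of all such exonic peaks. Among those between 3 and 5, 11 of 17 were lost, against 68.6% of all. Below 3, 5 of 10 member peaks were lost, against 65.2% of all.

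**Figure D1:**
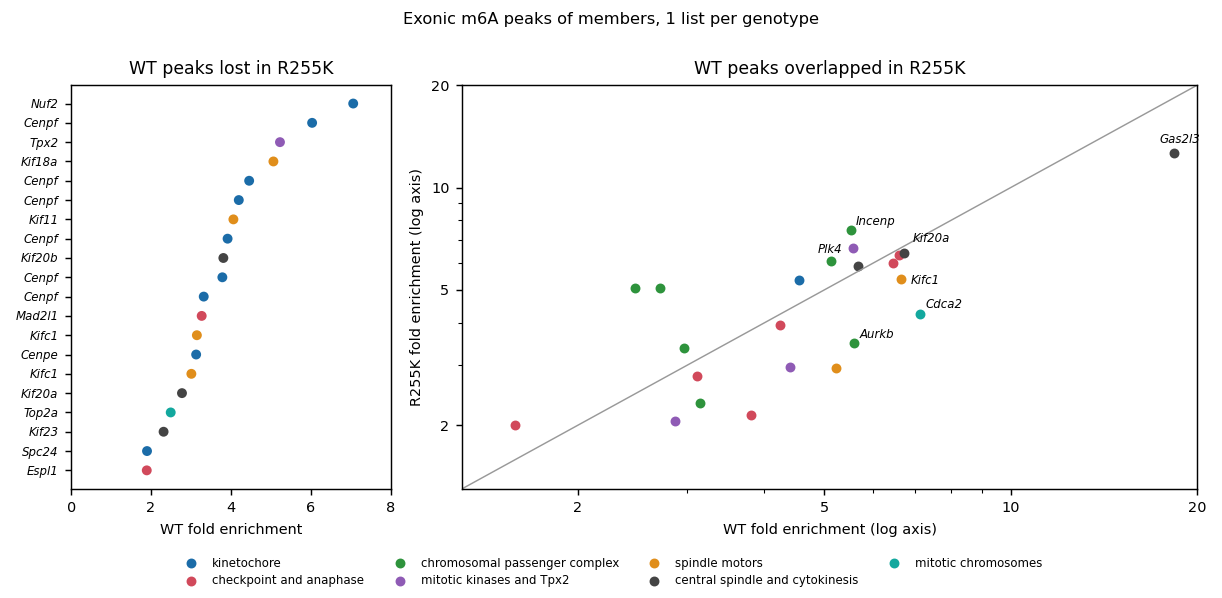
Fold enrichment of exonic m6A peaks of the members, with 1 point per WT peak, coloured by role. The left panel lists the 20 lost WT peaks by WT fold enrichment on a linear axis, from *Espl1* at 1.89 to *Nuf2* at 7.06. The right panel plots the 23 kept peaks, WT against R255K on log axes with the line of equality, and *Gas2l3* lies apart at 18.3 and 12.6.

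The strongest coding peaks are shown as 61 bases of the GRCm38 (mm10) genome around the summit, on the strand of the gene, with the motif GGAC, the preferred m6A motif, in capitals. The kept peaks were on *Gas2l3* in exon 12 (chr10:89413326-89413386, minus strand), *Cdca2* in exon 17 (chr14:67676889-67676949, minus), *Kifc1* in exon 6 (chr17:33883258-33883318, minus) and *Espl1* in exon 19 (chr15:102316643-102316703, plus). Exons are counted from the 5′ end over the merged exons of each gene.
Gas2l3: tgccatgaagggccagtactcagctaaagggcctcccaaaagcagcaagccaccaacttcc
Cdca2: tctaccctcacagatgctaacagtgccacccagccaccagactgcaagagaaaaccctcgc
Kifc1: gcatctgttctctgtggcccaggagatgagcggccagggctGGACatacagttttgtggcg
Espl1: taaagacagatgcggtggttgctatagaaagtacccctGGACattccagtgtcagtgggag

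The strongest lost coding peaks were on *Cenpf* in exon 13 (chr1:189653953-189654013, minus), *Kif18a* in exon 11 (chr2:109333441-109333501, plus) and again *Cenpf* in exon 12 (chr1:189657701-189657761, minus) and exon 13 (chr1:189654857-189654917, minus). The *Nuf2* peak, at 7.06 the strongest lost one, had its summit in the 3′ UTR, and 29 bases are shown (chr1:169498463-169498491, minus).
Cenpf, first peak: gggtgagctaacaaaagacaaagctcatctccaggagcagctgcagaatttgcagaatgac
Kif18a: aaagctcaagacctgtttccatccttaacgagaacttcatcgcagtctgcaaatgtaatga
Cenpf, second peak: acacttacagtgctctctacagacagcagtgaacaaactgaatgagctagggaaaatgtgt
Cenpf, last peak: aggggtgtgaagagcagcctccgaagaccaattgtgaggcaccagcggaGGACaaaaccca
Nuf2: atggagatacaactcagggccttgcatgc

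Among these windows GGAC was printed in 2 of the 4 kept and in 1 of the 4 lost coding peaks. In wider windows of 100 bp to each side of the summit, searched on the strand of the gene, GGAC was found in 32 of the 43 member peaks (74.4%, interval 59.8 to 85.1), against 78.5% of all exonic WT peaks. It was present in 16 of 23 kept and 16 of 20 lost member peaks. AGAC was found in 32 of 43 (74.4%, against 68.2% of all), and AAAC in 28 of 43 (65.1%, interval 50.2 to 77.6, against 50.8% of all). AAAC was present in 14 of 23 kept and 14 of 20 lost member peaks. A window can hold more than 1 of these motifs, and a match does not mark a methylated base.

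*Gas2l3* (chr10:89408823-89443967, minus strand), which encodes a protein that links actin and microtubules in the midbody, carried the strongest member peak. It spanned 1370 bp (chr10:89413084-89414453) of the last exon, and its WT fold enrichment was 18.3 (−log10 q 192). The overlapping R255K peak reached 12.6 (−log10 q 83.7) and covered 56.0% of the WT peak. *Cdca2*, which encodes the phosphatase targeting subunit Repo-Man on chromosomes, had a peak of 7.13 in WT and 4.25 in R255K cells. The main peak of *Kifc1*, a minus-end directed motor, had 6.66 and 5.38, and 2 smaller *Kifc1* peaks were lost. *Kif20a*, a central spindle motor, had a WT peak of 6.71 and an R255K peak of 6.41 that touched its last exon. The summits of both lay past the annotated end of *Kif20a*, and 33.2% of the exon length of *Kif20a* is shared with *Cdc23* on the opposite strand, so these peaks and some *Kif20a* counts could belong to either gene.

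On *Incenp*, the scaffold of the passenger complex, all 4 WT peaks met a stronger peak in R255K cells, and 1 R255K peak of 5.06 overlapped 2 of them. The strongest reached 5.51 in WT cells (−log10 q 124) against 7.48 in R255K cells (−log10 q 138). *Plk4*, the kinase that starts centriole duplication, also had a higher value in R255K cells, with 6.65 against 5.57. *Espl1*, which encodes separase, kept 5 of 6 WT peaks, and its strongest pair had 6.59 and 6.46 in the WT list against 6.33 and 5.99 in the R255K list. Peaks of the other members with kept peaks (*Aurkb*, *Birc5*, *Aurka*, *Tpx2*, *Kif2c*, *Kif20b*, *Cdc20*) ranged from 1.58 to 5.66 in WT cells. The remaining members with lost WT peaks only were *Mad2l1*, *Kif11*, *Kif23* and *Top2a*, with 2.31 to 4.06. No WT peak was on exons of *Cenpa*, *Ndc80*, *Spc25*, *Bub1*, *Bub1b*, *Bub3*, *Ttk*, *Cdca8*, *Plk1*, *Nek2*, *Prc1*, *Anln*, *Ect2* and *Cdca3*.

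At 0 h, before transcription was blocked, the members were lower in R255K than in WT cells on balance. The median log2 ratio of R255K over WT was −0.28, against 0.06 over the background genes. At least 1.5-fold lower in R255K were 13 of the 37 members (35.1%), against 19.6% of the background genes. At least 1.5-fold higher was 1 member, *Aurkb*, against 20.7% of the background genes. In these bulk libraries, fewer cells in G2 or M phase and less of these mRNAs per cell cannot be told apart.

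Of the 7 kinetochore genes, 3 (*Cenpf*, *Cenpe* and *Ndc80*) were at least 1.5-fold lower in R255K cells at 0 h. For *Cenpf* the WT libraries gave an FPKM of 5.77, 2.09 and 0.610 at 0, 4 and 8 h and the R255K libraries 1.62, 5.82 and 1.68, so the R255K library was the lower at 0 h and the higher at 4 and 8 h. Its ratio at 0 h was 0.281 (0.250 to 0.314). *Cenpe* had the same course, with 7.47, 1.55 and 0.504 in WT and 2.34, 6.67 and 2.19 in R255K cells. The NDC80 complex genes *Ndc80*, *Nuf2* and *Spc25* had log2 ratios of −0.95, −0.58 and −0.57 at 0 h, while the fourth subunit gene *Spc24* had 0.18. *Cenpa*, the centromeric histone H3, had −0.04.

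The checkpoint and anaphase genes ranged more widely at 0 h. The log2 ratio was −1.42 for *Bub1* and −1.21 for *Ttk*, both checkpoint kinases, and −0.45 for *Bub1b*. It was −0.28 for *Cdc20*, the activator of the anaphase-promoting complex and the most abundant member, with an FPKM of 229 in WT and 189 in R255K cells. *Mad2l1* and *Bub3*, which encode inhibitors of Cdc20, had −0.08 and 0.30. *Espl1* had a ratio of 1.31, exceeded only by *Aurkb* and *Birc5* among the members (1.26 to 1.36), with an FPKM of 42.5, 47.3 and 36.7 in WT and 55.8, 51.0 and 52.6 in R255K cells. R255K was the higher of the pair at each time for *Espl1*.

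The passenger complex genes held the highest ratios. *Aurkb* (chr11:69045647-69051664, plus strand), which encodes the kinase of the complex, had an FPKM of 32.2, 21.0 and 9.56 in WT and 54.2, 35.6 and 22.3 in R255K cells at 0, 4 and 8 h, a ratio of 1.68 at 0 h (1.58 to 1.79). *Birc5*, which encodes survivin, had 44.2, 59.1 and 68.1 in WT and 64.6, 68.8 and 74.4 in R255K cells, a ratio of 1.46 (1.39 to 1.54). Both were higher in R255K at every time. *Cdca8* (borealin) and *Incenp* were near equality at 0 h, with log2 ratios of 0.04 and 0.02. *Aurkb* and *Birc5* lie on chromosome 11, where the median log2 ratio at 0 h was 0.58 over 984 background genes, of which 485 were at least 1.5-fold higher in R255K. The other member on that chromosome, *Top2a*, which encodes the topoisomerase that untangles chromosomes, had 78.9, 62.2 and 50.8 in WT and 51.9, 76.7 and 50.1 in R255K cells, a ratio of 0.658 (0.639 to 0.677). The part of the chromosome in these ratios was not tested.

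Among the mitotic kinases, *Plk1* had a log2 ratio of 0.01 at 0 h, *Aurka* 0.32, *Nek2* −0.20 and *Plk4* −0.91, and the Aurora A activator *Tpx2* had −0.57. *Kif11*, the motor that pushes spindle poles apart, was the lowest of the spindle motors, with an FPKM of 46.0, 24.6 and 9.69 in WT and 13.8, 20.4 and 9.72 in R255K cells. Its ratio was 0.30 at 0 h (0.280 to 0.321). The genotypes were level at 8 h on summed counts, when the background median log2 ratio was 0.52. *Kif18a*, which dampens chromosome oscillation, had 3.77, 0.468 and 0.206 in WT and 1.38, 0.623 and 0.232 in R255K cells. The other motors *Kifc1* and *Kif2c* had log2 ratios of −0.16 and 0.06 at 0 h.

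Of the central spindle and cytokinesis genes, *Kif20b* (chr19:34922361-34975745, plus strand), a kinesin of late cytokinesis, was the lowest at 0 h, with an FPKM of 13.1, 1.93 and 0.458 in WT and 3.80, 4.22 and 1.00 in R255K cells. Its ratio was 0.291 (0.260 to 0.324). *Ect2*, the RhoA activator of the cleavage furrow, *Anln*, which encodes the ring scaffold anillin, and *Prc1*, which encodes the bundler of the central spindle, had log2 ratios of −1.07, −0.77 and −0.74. *Kif23* (−0.20) and *Gas2l3* (−0.17) were lower by less than 1.5-fold, and *Kif20a* was higher (0.25). *Cdca2* and *Cdca3* had −0.48 and 0.17.

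**Figure D2:**
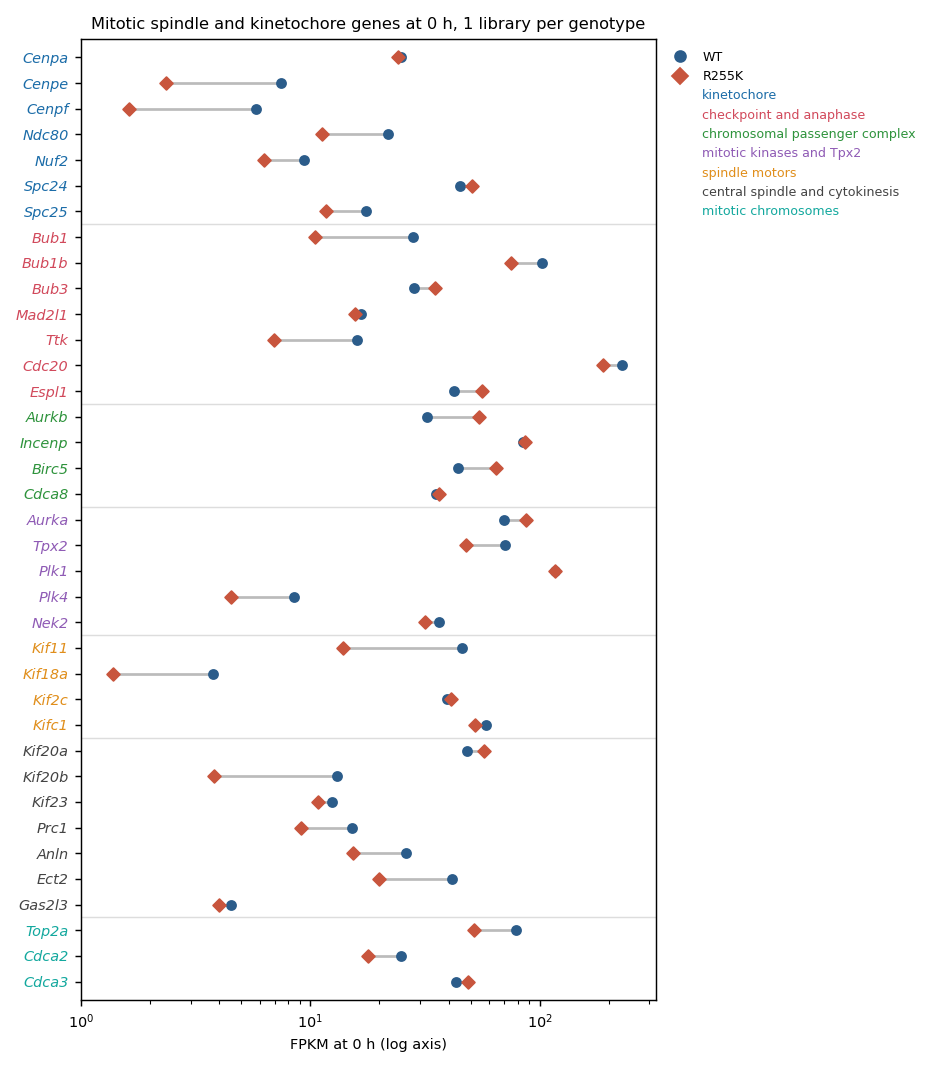
FPKM of each of the 37 members at 0 h on a log axis, with 1 WT library (circles) and 1 R255K library (diamonds), grouped and coloured by role, and a grey line joining the pair. The widest gaps belong to *Cenpf*, *Kif20b*, *Kif11* and *Cenpe*, all lower in R255K, and the widest gap in the other direction to *Aurkb*.

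The ratio at 0 h moved with the base composition of the transcripts. Across the 37 members the log2 ratio correlated with the GC content of the exons (Pearson 0.68, Spearman 0.73), as it did less strongly across the 11869 background genes (Spearman 0.40). All members share the same pair of libraries. The 13 members at least 1.5-fold lower in R255K had a GC content of 37.3 to 44.1% (median 41.9%), and the others 40.7 to 56.2% (median 48.9%). Their median exon length was 6957 bp, against 4319 bp for the others. The ratio at 0 h also correlated with exon length (Spearman −0.46 across members, −0.27 across background genes). Background genes were also divided into 5 equal bins of GC content. The median log2 ratio in the lowest bin was −0.52 over the background genes and −1.07 over the 15 members in it. In the highest bin it was 0.33 over the background genes and 0.01 over 3 members. At 4 h the correlation across members was −0.20 and at 8 h it was 0.03 (Pearson). With the GC trend of the background genes subtracted, the members' median log2 ratio at 0 h, with a pseudocount of 1, was −0.14. Their median change from 0 to 8 h, described below, was −0.57 instead of −0.92 in WT cells and −0.36 instead of −0.29 in R255K cells. After this step 6 members were at least 1.5-fold lower (*Cenpf*, *Cenpe*, *Kif11*, *Kif20b*, *Ttk*, *Bub1*) and 4 at least 1.5-fold higher (*Aurkb*, *Birc5*, *Mad2l1*, *Bub3*). The share of background genes past these folds after this step was not computed, so these counts cannot be set beside the background. The parts of base composition and exon length in the 0 h ratios were not tested.

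**Figure D3:**
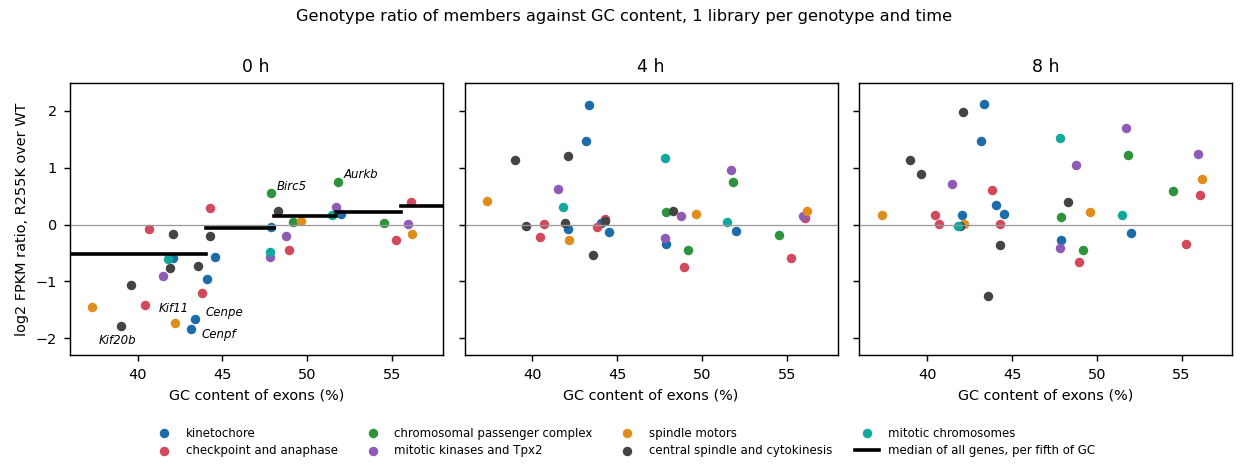
Log2 FPKM ratio of R255K over WT against the GC content of the exons at 0, 4 and 8 h, with 1 point per member coloured by role and 1 library per genotype and time. Black bars in the 0 h panel are medians of the background genes in 5 equal bins of GC content, from −0.52 to 0.33. Members climb with GC content at 0 h (Pearson 0.68) and do not at 4 h (−0.20) and 8 h (0.03).

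After the block of transcription, fewer members were lower in R255K cells. The median log2 ratio was 0.06 at 4 h and 0.18 at 8 h, against 0.23 and 0.52 over the background genes, so relative to the background it was −0.17 and −0.34, against −0.34 at 0 h. With libraries scaled by edgeR's TMM factors, which move the background median at 8 h to 0.09, the members' medians were −0.17 and −0.25. At 4 h R255K was at least 1.5-fold higher for 8 members (21.6%, background 34.3%) and at least 1.5-fold lower for 1, *Bub1b* (2.70%, background 9.93%). At 8 h it was at least 1.5-fold higher for 13 members (35.1%, background 47.5%) and lower for 2, *Prc1* and *Bub1b* (5.41%, background 10.5%). These levels are relative to all other mRNA left in the library at the same time.

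In WT cells the members split into long-lived and short-lived transcripts. From 0 to 8 h, 18 of 37 were at least 2-fold lower (48.6%, background 42.6%), with a median log2 change of −0.92 (background −0.60) and a range of −4.83 to 0.62. In R255K cells 13 were at least 2-fold lower (35.1%, background 22.0%), with a median of −0.29 (background −0.11). Of these, 12 were lower by that fold in both genotypes, 6 in WT alone and 1, *Prc1*, in R255K alone. Across the 37 members the log2 changes of the genotypes correlated (Pearson 0.75, background 0.79), with all members sharing the same 4 libraries.

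Half-lives were taken from the mean of the decay rates from 0 to 4 h and from 0 to 8 h, relative to the rest of the library. A half-life could be given for 24 members in WT and 22 in R255K cells. The others had no net decay relative to the library. The shortest WT half-lives were those of *Kif20b* (1.55 h), *Kif18a* (1.57 h) and *Cdca2* (1.79 h). For *Cdca2* the FPKM was 24.9, 4.29 and 1.72 in WT and 17.8, 9.61 and 4.97 in R255K cells. *Cenpe* (1.90 h), *Gas2l3* (2.08 h) and *Plk4* (2.23 h) followed. The kinases *Nek2*, *Aurka* and *Plk1* had 2.69, 2.95 and 3.13 h, and the motor *Kifc1* had 2.90 h.

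The longest WT half-lives were those of *Kif2c* (33.1 h), *Nuf2* (32.6 h) and *Kif23* (21.1 h). *Kif2c*, which encodes the microtubule depolymerase MCAK, had an FPKM of 39.4, 35.9 and 33.8 in WT and 41.1, 40.6 and 39.3 in R255K cells. *Nuf2* had 9.36, 9.13 and 7.0 in WT and 6.24, 8.63 and 7.85 in R255K cells. *Kif23*, a motor of the centralspindlin complex, had 12.4, 10.3 and 10.6 in WT and 10.8, 10.7 and 8.22 in R255K cells. Half-lives that exceed the 8 h sampled rest on small changes between libraries. *Cenpa*, *Spc24*, *Bub1b*, *Mad2l1*, *Birc5*, *Cdca8*, *Tpx2* and *Cdca3* were at or above their 0 h level at 8 h in WT cells, relative to the library, and *Kif20a* had 48.1, 54.0 and 45.8 in WT and 57.0, 63.9 and 60.1 in R255K cells.

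Among the 17 members with net decay in both genotypes, the half-life ratio of R255K over WT was above 1.5 for 11 (64.7%, background 68.8%) and below 1/1.5 for none (background 5.78%). Its median was 2.10, against 1.98 over the background genes. These counts leave out 7 members with net decay in WT cells alone (*Cenpe*, *Cenpf*, *Nuf2*, *Ttk*, *Kif11*, *Anln* and *Top2a*) and 5 in R255K cells alone (*Cenpa*, *Bub3*, *Cdc20*, *Espl1* and *Cdca8*), so they do not describe all members. The highest ratios were those of *Kif20b* at 6.40 (4.56 to 9.0), *Ect2* at 5.30 (4.01 to 7.0) and *Kif2c* at 4.93, with an interval of 0.649 to 37.5. *Ect2* had an FPKM of 41.5, 18.7 and 6.49 in WT and 19.8, 18.4 and 12 in R255K cells. The lowest ratios were those of *Prc1* at 0.939 (0.765 to 1.15), *Incenp* at 1.04 (0.963 to 1.12) and *Aurkb* at 1.19 (1.04 to 1.37). *Prc1* had 15.1, 10.2 and 8.62 in WT and 9.06, 6.98 and 3.61 in R255K cells. *Incenp* had 84.9, 53.2 and 17.0 in WT and 86.3, 46.6 and 25.5 in R255K cells. On summed counts its log2 ratio was 0.02 at 0 h and 0.58 at 8 h, near the background medians of 0.06 and 0.52.

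These ratios include the R255K library at 0 h, whose ratio to WT moved with base composition. In that genotype 3 members were at least 1.5-fold higher at 4 h than at 0 h (*Cenpf*, *Cenpe* and *Bub1*; 8.11%, background 8.87%), and in WT cells 0 members were (background 9.41%). *Bub1* had an FPKM of 27.9, 32.9 and 21.9 in WT and 10.5, 28.3 and 24.5 in R255K cells. The step from 4 to 8 h uses neither 0 h library, and it was chosen as an alternative after seeing the data.

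From 4 to 8 h, 17 of the 37 members were at least 2-fold lower in WT cells (45.9%, background 24.0%) and 6 in R255K cells (16.2%, background 3.97%), and these 6 were lower by that fold in both genotypes. The 6 were *Cenpe*, *Cenpf*, *Spc25*, *Kif11*, *Kif18a* and *Kif20b*. The median log2 change was −0.52 in WT (background −0.36) and −0.43 in R255K cells (background −0.10). The change was smaller in R255K than in WT cells for 26 of 37 members (70.3%, background 67.8%), and from 0 to 8 h for 27 (73.0%, background 66.0%). With TMM factors the order of the medians from 4 to 8 h turned, to −0.19 (WT) and −0.31 (R255K), and the change was smaller in R255K cells for 17 of 37 members. With the same factors the background medians were −0.02 and 0.02, and the change was smaller in R255K cells for 5950 of 11869 background genes.

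The members differed in how the genotypes compared from 4 to 8 h. The 8 h level of *Cenpe* was 32.5% of its 4 h level in WT and 32.8% in R255K cells, that of *Cenpf* 29.1% and 28.9%, and that of *Kif20b* 23.7% in both. On summed counts the genotypes were level over this step for these 3 transcripts, whose GC content was 39.0 to 43.4%. For *Plk1* (chr7:122159439-122169873, plus strand), the polo kinase of mitotic entry and cytokinesis, it was 28.3% in WT and 60.5% in R255K cells, for *Nek2*, a centrosome kinase, 28.1% and 52.7%, and for *Ect2* 34.8% and 65.2%.

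The decrease from 4 to 8 h was at least 1.5-fold smaller in R255K than in WT cells for 7 members (18.9%, background 26.8%), *Plk1*, *Ect2*, *Nek2*, *Incenp*, *Gas2l3*, *Aurka* and *Ttk*. It was at least 1.5-fold larger for 1 (2.70%, background 3.86%), *Prc1*, at 84.6% in WT and 51.6% in R255K cells. With TMM factors *Plk1*, *Ect2* and *Nek2* were still past the fold (8.11%, background 17.5%), and *Prc1* and *Kif23* were past it in the other direction (5.41%, background 7.08%). *Prc1* shares 11.1% of its exon length with *Rccd1* on the opposite strand.

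*Plk1* had an FPKM of 116, 54.4 and 15.4 in WT and 117, 60.5 and 36.6 in R255K cells. *Nek2* had 36.4, 14.1 and 3.96 in WT and 31.6, 15.6 and 8.23 in R255K cells. Both were near level between genotypes at 0 and 4 h and apart at 8 h, when the ratio of R255K over WT was 2.38 (2.14 to 2.64) for *Plk1* and 2.08 (1.79 to 2.41) for *Nek2*. *Aurka*, the spindle pole kinase, had 69.7, 26.4 and 11.3 in WT and 86.8, 51.7 and 36.7 in R255K cells. *Gas2l3* had 4.51, 1.01 and 0.443 in WT and 4.01, 2.32 and 1.74 in R255K cells, so its genotypes were apart by 4 h, and its half-life ratio was 2.76 (2.21 to 3.45). *Kifc1* had 58.5, 22.5 and 8.63 in WT and 52.4, 26.7 and 15.0 in R255K cells.

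**Figure D4:**
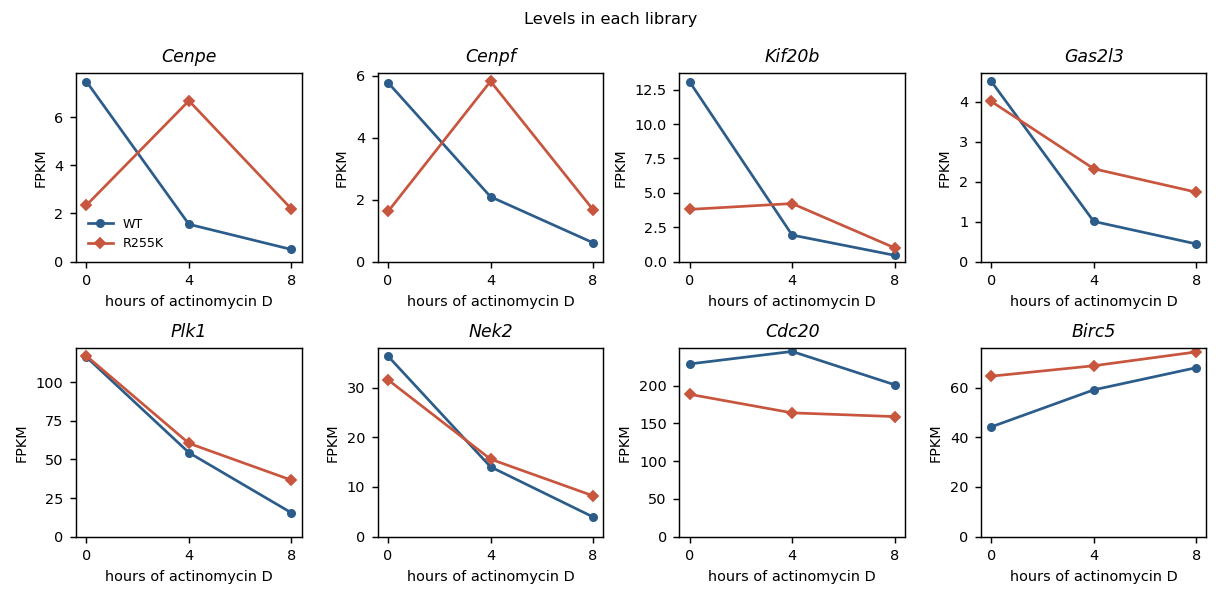
FPKM of 8 members after 0, 4 and 8 h of actinomycin D on linear axes from 0, with 1 library per genotype and time and no error bars. *Cenpe* and *Cenpf* are highest at 4 h in R255K cells, *Gas2l3*, *Plk1* and *Nek2* decline in both genotypes and end higher in R255K cells, while *Cdc20* is lower in R255K cells at each time, and *Birc5* is higher in R255K cells at each time and ends above its 0 h level in both genotypes.

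**Figure D5:**
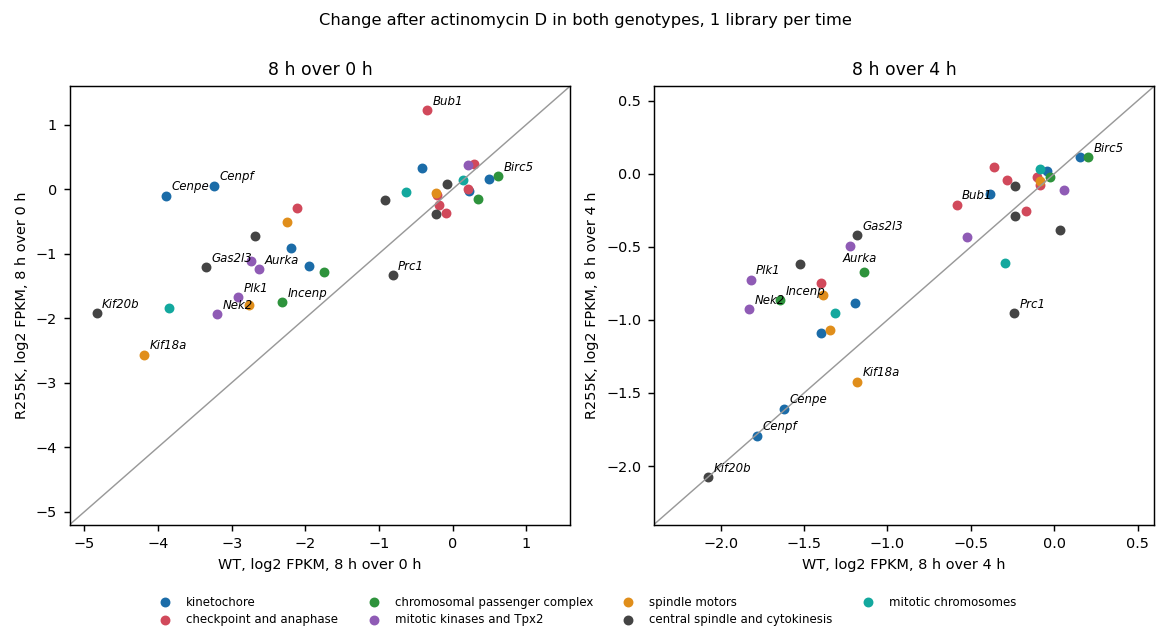
Log2 change in FPKM in R255K against WT cells, from 0 to 8 h (left) and from 4 to 8 h (right), with 1 point per member coloured by role and the line of equality. *Cenpe*, *Cenpf* and *Kif20b* lie above the line on the left and on it on the right, while *Plk1*, *Nek2*, *Aurka* and *Gas2l3* lie above it in both panels.

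Decay was also set beside the peaks. The 23 members with a WT peak had a median log2 change from 0 to 8 h of −1.75 in WT cells, and the 14 without one had −0.86. Over the background genes these medians were −1.58 and 0.26. From 4 to 8 h the WT medians of these members were −0.52 and −0.41, and the R255K medians −0.43 and −0.45. Background genes with and without a peak had WT medians of −0.67 and 0.03, and R255K medians of −0.21 and −0.0042. The 9 members that kept every WT peak had −1.14 in WT and −0.43 in R255K cells over that step. The 6 members that lost some of their WT peaks had −0.87 and −0.47. The 8 members that lost every WT peak had −0.34 in WT and −0.50 in R255K cells. These medians use summed counts, and background medians for the same classes of kept and lost peaks were not computed. *Plk1*, *Nek2*, *Ect2* and *Ttk* had no exonic peak in either list. On summed counts their decrease from 4 to 8 h was at least 1.5-fold smaller in R255K cells, as it was for *Gas2l3*, *Aurka* and *Incenp*. These 7 were 18.9% of the members (background 26.8%). *Prc1*, also without an exonic peak in either list, was past the fold in the other direction. The other members without a WT peak were not past it. With TMM factors *Plk1*, *Ect2* and *Nek2* still had the smaller decrease in R255K cells by this fold (8.11%, background 17.5%). *Prc1* and *Kif23* then had the larger one (5.41%, background 7.08%). *Cenpf*, with 6 lost peaks, was level between genotypes from 4 to 8 h on summed counts. The background medians over that step were −0.36 in WT and −0.10 in R255K cells. The groups are small, and the link between peaks and decay was not tested.

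The module was set beside a list of 104 other mitotic genes, all at a mean FPKM of at least 1. Their median log2 ratio at 0 h was −0.32, with 33 at least 1.5-fold lower (31.7%, background 19.6%) and 7 at least 1.5-fold higher in R255K (6.73%, background 20.7%). From 4 to 8 h, 31 were at least 2-fold lower in WT (29.8%, members 45.9%, background 24.0%) and 10 in R255K cells (9.62%, members 16.2%, background 3.97%), with medians of −0.59 and −0.33. The lowest at 0 h were *Mki67*, the proliferation marker, at −2.10, *Aspm* at −2.06 and *Knl1*, a kinetochore scaffold, at −1.89. The highest were *Pimreg* at 1.15, *Pttg1*, which encodes securin, at 1.08 and *Kif18b* at 0.93, and all 3 lie on chromosome 11.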

How the data were processed

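The 2 tables of counts per gene are raw counts deposited by the authors, who discarded rRNA reads (Bowtie2 2.2.6), mapped to mm10 (HISAT2) and filtered for unique reads (Picard 2.16.0, SAMtools 0.1.09), per the submitters' processing notes and the methods. The counting tool, annotation and strand setting are not given in the sources used here. The peak lists hold the fold enrichment, a ratio over local background, and the −log10 q that the authors obtained with MACS2. All 6 count columns were mapped to samples. How replicates were combined in a list is not given in the sources used here.

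FPKM was computed from counts, deposited exon lengths and summed counts, with no pseudocount in the ratios and medians of the report unless stated. A pseudocount of 1 was used for the median at 0 h after GC subtraction and in the comparison of settings. The floor at 4 and 8 h was a count of 3. Peaks were joined to exons with bedtools 2.31.1 (1 bp overlap) and placed on GENCODE vM21. The software was Python 3.11.15 with scipy 1.17.1, numpy 2.4.6, pandas 2.3.3, pysam 0.24.0 and statsmodels 0.14.6 (lowess span 0.3), and R 4.3.3 with edgeR 4.0.16 for TMM factors alone. Alternatives covered scaling, GC content, low values, times and peak thresholds. Calculations were tested on simulated data. Ratio intervals are exact conditional binomial, and those of half-life ratios use the delta method.

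The members and lists were chosen with earlier results of these data known. All members are named, and values in every library are given for the 3 highest and 3 lowest by ratio at 0 h and by half-life ratio, the 3 shortest and longest WT half-lives, members on chromosome 11, those with the 5 strongest peaks and *Gas2l3*. *Cenpe*, *Bub1*, *Plk1*, *Nek2* and *Aurka* were added after their values were seen.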

Additional observations from a re-analysis of the deposited data

Results flagged for a closer look

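*Cenpe* and *Cenpf* moved in opposite directions in the genotypes from 0 to 4 h, each by at least 1.5-fold. For *Cenpe* the log2 change was −2.27 in WT and 1.51 in R255K cells, a difference of 3.78. For *Cenpf* it was −1.46 and 1.84, a difference of 3.31. Both R255K changes use the R255K library at 0 h, whose ratio to WT moved with base composition. From 4 to 8 h, on summed counts, the log2 change was −1.62 in WT and −1.61 in R255K cells for *Cenpe*. For *Cenpf* it was −1.78 and −1.79. With 1 library per genotype and time, the differences were not tested.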

How the results depend on the processing

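Scaling by *Gapdh* moved the results most: the median log2 ratio at 0 h became 1.08, with 0 members lower and 27 higher, the medians from 0 to 8 h became −2.497 in WT and −2.53 in R255K cells with 36 and 37 members at least 2-fold lower, and the median half-life ratio became 0.481 with 2 members above 1.5. The background genes moved with the members under *Gapdh*. Without a pseudocount the median at 0 h was 1.15 over the members and 1.49 over the background genes. From 0 to 8 h the background medians were −2.18 in WT and −2.35 in R255K cells. The *Gapdh* counts at 0, 4 and 8 h were 995, 242 and 2357 (WT) and 331, 787 and 1875 (R255K). Subtracting the GC trend left 6 members at least 1.5-fold lower and 4 higher at 0 h, and leaving out chromosome 11 left 0 higher and moved the WT median from 0 to 8 h to −1.43. Scaling by ribosomal protein genes put 25 half-life ratios above 1.5, and using 8 h alone 19. Background shares were not computed for the member counts given here under *Gapdh*, the GC trend, ribosomal protein genes, 8 h alone or without chromosome 11. From 0 to 4 h the R255K median was −0.0226 (background −0.048) and 2 members were at least 2-fold lower. From 4 to 8 h, a step chosen after seeing the data, 6 were (16.2%, background 3.97%). At a minimum fold enrichment of 4, WT peaks lay on 15 members. Background shares for the count from 0 to 4 h and at this enrichment were not computed either. With TMM factors the medians from 0 to 8 h were −0.39 in WT and −0.16 in R255K cells, and from 4 to 8 h the order of the genotypes turned (−0.19 and −0.31), with 17 members instead of 26 having a smaller decrease in R255K cells and 3 instead of 7 past 1.5-fold. With ribosomal protein genes the medians were −0.43 at 0 h and −1.65 and −0.50 from 0 to 8 h. The background medians were then −0.10, −1.335 and −0.33. A pseudocount of 0.1, no filter on low values and the other peak settings kept the direction and moved no count by over 1.5 times. The causes were not tested. No paired analysis was possible because each genotype and time has 1 RNA-seq library and each genotype 1 peak list.

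The RNA-seq has 1 library per group, so colony, culture and library differences cannot be told apart from genotype. Levels are relative to the library, and absolute decay was not measured. The depth behind the peak lists is unknown, and its part in lost peaks was not tested.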

Other observations

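Genes of the cell cycle phases before mitosis were compared as a description. Over 45 G1/S and replication genes the median log2 ratio of R255K over WT at 0 h was −0.05, with 5 at least 1.5-fold lower (11.1%, all genes 19.6%) and 3 higher (6.67%, all genes 20.7%), against −0.28 over the spindle and kinetochore genes. Their median GC content was 48.6%, against 44.5%. From 0 to 8 h their median log2 change was −0.05 in WT and −0.08 in R255K cells, against −0.92 and −0.29. The 6 genes of the MCM helicase, which unwinds DNA in S phase, had a median log2 ratio of −0.11 at 0 h and changes of 0.41 in WT and 0.11 in R255K cells from 0 to 8 h, so none was 2-fold lower in either genotype.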
